A study of Arabidopsis thaliana with 6 samples.

Results

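AT1G67860, AT1G67865 and AT1G67870 are 3 protein-coding genes of Arabidopsis thaliana that follow one another on chromosome 1. They were followed here in petioles, the stalks that carry the leaf blades, of plants grown alone or crowded together. Each of the 3 loci has exactly 1 probe set assigned to it alone, so the group comprises 3 of the 13350 genes that the platform annotation pairs with a probe set of their own. The genes were picked with their higher levels in crowded plants on these same arrays already known. Their levels in both conditions and their correlation over the arrays therefore describe the choice, and the count of calls among them is printed only as part of that description.

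The study used 6 Affymetrix 3′ expression arrays, 3 from single plants, the control, and 3 from plants of a dense canopy with 2066 plants per m2. All plants grew in days of 9 h light at 180 µmol per m2 per s and 20°C, were potted individually after 10 days, and were sampled about 23 days after sowing, when the canopies had a leaf area index (leaf area over ground area) of 0.9. Every array carries RNA of a pooled sample, 2 young petioles from each of 4 plants, and the labels call these pools biological replicates. No mutant, hormone treatment or accession name is given for either group, and the groups differ in crowding only as far as the labels say.

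Plants in a dense stand shade one another and touch. The filtered light is read by phytochromes, and petioles commonly respond by elongating and lifting the leaves. Genes that lie side by side in a plant genome can be tandem copies, can share regulatory DNA, or can be unrelated neighbours. The gene tables used here give the 3 genes no symbol beyond the locus number and no described function, so no role is ascribed to any of them.

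The 3 probe sets carry the plain suffix "_at", which Affymetrix gave to probe sets designed against a single transcript. The suffixes "_s_at" and "_x_at" mark probe sets expected to bind several similar transcripts. The suffix is only a hint from the time of design, because the probes were not realigned here. It is also common. Of the 13513 single-gene probe sets, 13230 (97.9%) end in "_at", 173 in "_s_at" and 110 in "_x_at". No probe set listed with several genes names any of the 3 loci. In RefSeq's gene list for the TAIR10.1 assembly, AT1G67860 and AT1G67870 were found by gene number and AT1G67865 by its locus name, since its gene number differs between the annotations.

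AT1G67860, the first of the 3 in chromosome order, had RMA expression values (log2) of 2.20, 2.11 and 1.86 in single-plant replicates 1, 2 and 3. In canopy replicates 1, 2 and 3 it stood at 2.87, 3.00 and 2.89. All canopy arrays were higher than all single-plant arrays, and the canopy arrays lay closer together than those of the single plants. The canopy mean was 2.92 ± 0.07 and the single-plant mean 2.06 ± 0.17 (log2, SD, n = 3). The difference of 0.86 ± 0.11 (log2, SE, n = 3 per group) corresponds to a 1.82-fold higher level in the canopy. The gap between the lowest canopy array and the highest single-plant array was 0.67 log2 units, against a range of 0.34 within the single plants and 0.13 within the canopy.

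AT1G67865, the middle gene, had levels of 5.73, 5.74 and 5.65 (log2) in single-plant replicates 1, 2 and 3. The canopy levels were 6.86, 6.32 and 6.60 in replicates 1, 2 and 3. The groups again did not overlap, but here the spread lay in the canopy. The canopy mean was 6.59 ± 0.27 and the single-plant mean 5.71 ± 0.05 (log2, SD, n = 3), which gives a difference of 0.89 ± 0.13 (log2, SE) or 1.85-fold. The gap between the groups was 0.58, and the canopy arrays spanned 0.55, nearly as much.

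AT1G67870, the last of the 3, stood at 4.44, 4.21 and 4.53 (log2) in single-plant replicates 1, 2 and 3. It stood at 5.08, 5.04 and 5.22 in canopy replicates 1, 2 and 3. All canopy arrays were above all single-plant arrays. The means were 5.11 ± 0.09 and 4.39 ± 0.16 (log2, SD, n = 3), a difference of 0.72 ± 0.11 (log2, SE) or 1.65-fold, with a gap of 0.51 between the groups. In whole petioles, more cells that express a gene and more RNA per cell cannot be told apart.

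**Figure D1:**
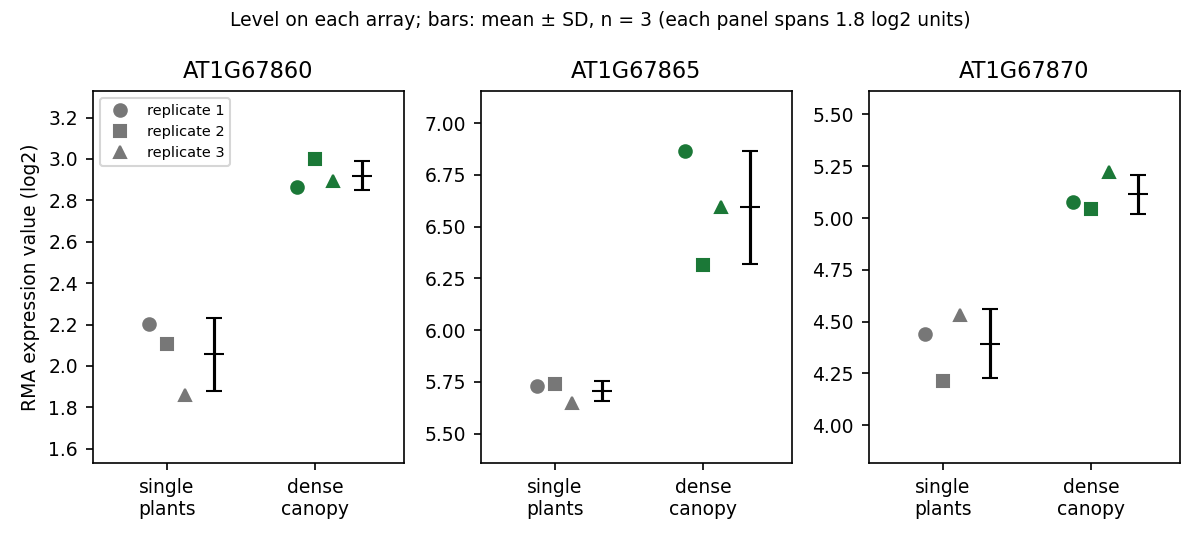
RMA expression values (log2, vertical axis) of AT1G67860, AT1G67865 and AT1G67870 on each array of single plants (grey) and of the dense canopy (green), with marker shapes for replicate number and bars for the mean ± SD (n = 3). In each panel the canopy points lie above the single-plant points, and AT1G67865 has the widest canopy spread, from 6.32 to 6.86.

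For the 3 genes the canopy excess was of similar size. The log2 level of AT1G67860 minus that of AT1G67865 shifted by -0.02 between single plants and canopy, where the SD of that quantity was 0.34 over the canopy arrays and 0.13 over the single-plant arrays. For AT1G67860 minus AT1G67870 the shift was 0.14, with SDs of 0.14 and 0.29. For AT1G67865 minus AT1G67870 it was 0.17, with SDs of 0.27 and 0.20. In each of the 3 pairs this quantity overlapped between the groups, so no difference in response among the 3 genes was visible beyond the replicate spread. Levels of different probe sets cannot be ranked against each other, since each probe set has its own binding strength.

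Among the 22746 probe sets that are not controls, 105 (0.462%) had a larger excess in the canopy than AT1G67865, 115 (0.506%) a larger one than AT1G67860 and 171 (0.752%) a larger one than AT1G67870. The 3 genes thus lie in the upper tail of differences without being at its end. All 3 were among the probe sets called by limma (Benjamini-Hochberg adjusted p under 0.05 over all probe sets), which made up 0.426% of all probe sets in that direction. Groups that do not overlap, with the canopy higher, were found for 3 of the 3 genes and for 7.71% of all probe sets, or 17.0% in either direction. Both counts follow from the way the genes were chosen. The calls depend on single arrays: without single-plant replicate 2 or 3, 0 of the 3 passed, without single-plant replicate 1 or canopy replicate 3 only AT1G67860, without canopy replicate 2 only AT1G67865, and without canopy replicate 1 all but AT1G67870. Those 6 fits called 0.0747% to 0.699% of all probe sets, and the log2 differences of the 3 genes stayed between 0.63 and 1.02.

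**Figure D2:**
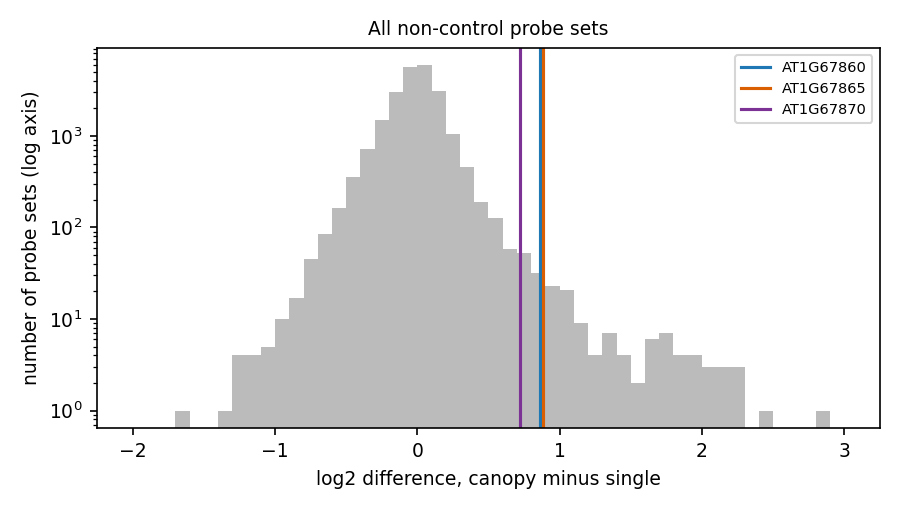
Number of probe sets (vertical axis, log scale) by log2 difference between canopy and single plants (horizontal axis) for the 22746 non-control probe sets, with coloured lines at the 3 genes. The lines stand at 0.72, 0.86 and 0.89, in the right-hand tail.

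Facts of the arrays that could touch these values are as follows. Across all probe sets, r between arrays of the same group was 0.990 to 0.994, and 0.987 to 0.991 between arrays of different groups. On the second principal component canopy replicate 1 lay at -22.6, far from canopy replicates 2 (8.94) and 3 (15.9). Without that array the log2 differences were 0.89 for AT1G67860, 0.75 for AT1G67865 and 0.74 for AT1G67870. The array median was 0.022 lower in the canopy, and with equal medians the log2 differences of the 3 genes were 0.74 to 0.91. Of the spiked poly-A controls, dap, thr and phe differed by -0.31, -0.18 and -0.16 between canopy and single plants and lys by 0.02 (log2). The 3′ minus 5′ difference of the actin controls averaged 5.03 ± 0.12 on canopy arrays and 5.35 ± 0.26 on single-plant arrays (log2, SD, n = 3), and that of the GAPDH controls 0.60 ± 0.22 and 0.86 ± 0.13. The part of these control differences in the results was not tested. Of the 10 genes listed as markers of green tissue, PSBW (photosystem II) and ATPC1 (chloroplast ATP synthase) could be followed by name, and their summed level ran from 10.0 to 10.2 on canopy arrays and from 9.93 to 10.0 on single-plant arrays (log2). The guard-cell factor FAMA, 1 of 3 guard-cell markers, lay between 1.28 and 1.69 in the canopy and between 1.16 and 1.39 without it, and the root-hair expansin EXPA7, 1 of 2 root markers, at 0.78 to 0.94 and 1.00 to 1.05 (log2). None of these 4 genes passed limma's test (adjusted p = 0.47 to 0.787), and the 6 vascular and 4 flower markers could not be followed by name. EXPA7 lay under the array medians of 1.29 to 1.32 on all 6 arrays, where a change may be understated. FAMA ranged from under to above those medians.

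Over the 6 arrays the 3 genes correlated with one another at Pearson r of 0.90 for AT1G67860 and AT1G67865, 0.89 for AT1G67860 and AT1G67870, and 0.90 for AT1G67865 and AT1G67870. These values mostly carry the gap between the 2 groups, which was part of the choice. After the mean of each group was subtracted, r was -0.20, -0.50 and -0.02 for the same pairs in that order. With 3 arrays per group such values are very imprecise. Leaving out 1 array moved them between -0.80 and 0.25 for AT1G67860 and AT1G67865, between -0.87 and 0.18 for AT1G67860 and AT1G67870, and between -0.61 and 0.22 for AT1G67865 and AT1G67870. They are a description without a test.

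The deviations from which these r were computed were as follows on the single arrays. Canopy replicate 1 was the highest canopy array for AT1G67865, 0.27 above its group mean, but the lowest for AT1G67860, 0.05 below its group mean. Canopy replicate 2 was the lowest for AT1G67865 (-0.28) and for AT1G67870 (-0.07), but the highest for AT1G67860 (0.08). Canopy replicate 3 was the highest for AT1G67870 (0.11). Among the single plants, replicate 3 was the lowest for AT1G67860 (-0.19) and for AT1G67865 (-0.06) and the highest for AT1G67870 (0.14). No array of either group was thus highest or lowest for all 3 genes. Some of these ranks rest on small gaps, as for AT1G67860, with -0.05 in canopy replicate 1 and -0.03 in canopy replicate 3.

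**Figure D3:**
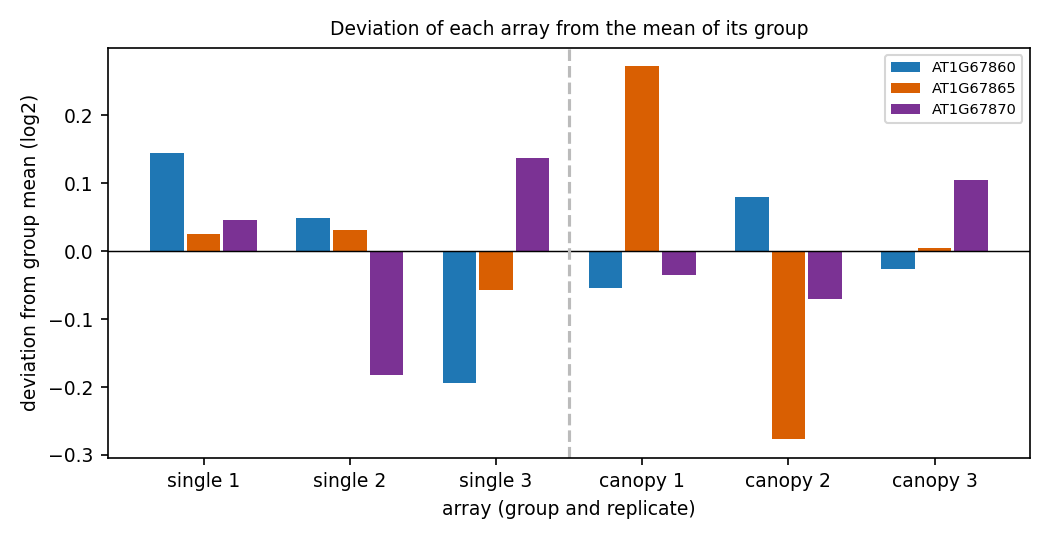
Deviation of each array from the mean of its own group (log2, vertical axis) for the 3 genes, with the single-plant arrays on the left of the dashed line and the canopy arrays on the right. The bars of the 3 genes point in different directions on most arrays, and the longest are those of AT1G67865 in canopy replicates 1 (0.27) and 2 (-0.28).

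The genes with the most similar profile to each of the 3 were sought among the 816 other single-gene probe sets whose SD over the 6 arrays was at least 0.3 (log2). For AT1G67860, 46 of these (5.64%) had an r at least as high as its closest neighbour among the 3. For AT1G67865 there were 53 (6.50%) and for AT1G67870 27 (3.31%). By r over the 6 arrays, the 3 neighbouring genes were therefore not one another's nearest profiles. Both this r and the SD used to pick the 816 include the gap between the groups. AT4G02200, for one, had SDs of only 0.12 in the canopy and 0.05 in single plants, with a difference of 0.56 (log2). The 816 thus favour genes that differ between the groups, which can raise these counts. With the group means removed, the highest r with another of the 3 genes was -0.20 for AT1G67860 and -0.02 for AT1G67865 and AT1G67870. Of the 816 probe sets, 525, 447 and 399 lay at or above these values. Leaving out 1 array took r up to 0.25, 0.18 and 0.22 for the 3 pairs. The values are thus too imprecise to tell whether a positive relation was left.

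AT1G67860 was closest to AT5G17760, a gene of the AAA-ATPase family, with r = 0.997 over the 6 arrays and 0.95 after the group means were removed. AT5G17760 had a canopy mean of 3.32 ± 0.10 and a single-plant mean of 2.51 ± 0.13 (log2, SD, n = 3). Next came AT1G14200, a RING-finger gene, at r = 0.986 and AT1G23130, of the Bet v I-like lipid-binding family, at r = 0.983, with 0.98 and 0.79 after the group means were removed. The profile of AT1G67865 was closest to AT4G02200, of the Di19 zinc-finger family, at r = 0.983, SCPL34, a serine carboxypeptidase-like gene, at r = 0.981, and MT1C, a metallothionein gene, at r = 0.980, with 0.85, 0.89 and 0.87 after the group means were removed. Of these, SCPL34 averaged 3.31 ± 0.31 on canopy arrays and 2.50 ± 0.10 on single-plant arrays (log2, SD, n = 3). Its spread too lay mostly in the canopy, which the choice by high r with AT1G67865 favours.

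AT1G67870 was closest to BCAT4, which starts the chain elongation of methionine for glucosinolates, with r = 0.967. The level of BCAT4 averaged 6.04 ± 0.13 on canopy arrays and 4.61 ± 0.12 on single-plant arrays (log2, SD, n = 3), which is 2.71-fold higher. AT1G62790, of the lipid-transfer protein family, followed at r = 0.963 and AT1G61740, of the TauE/SafE family of sulfite exporter-like proteins, at r = 0.960. After the group means were removed, r with AT1G67870 was 0.48 for BCAT4, 0.61 for AT1G62790 and 0.44 for AT1G61740. The 9 genes were picked for their high r on the same 6 arrays, and all were higher in the canopy. That direction, and the r left after the group means were removed, are favoured by this choice and are no separate result. Of the 816 probe sets, 13 had an r of at least 0.95 with AT1G67860, 20 with AT1G67865 and 6 with AT1G67870.

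**Figure D4:**
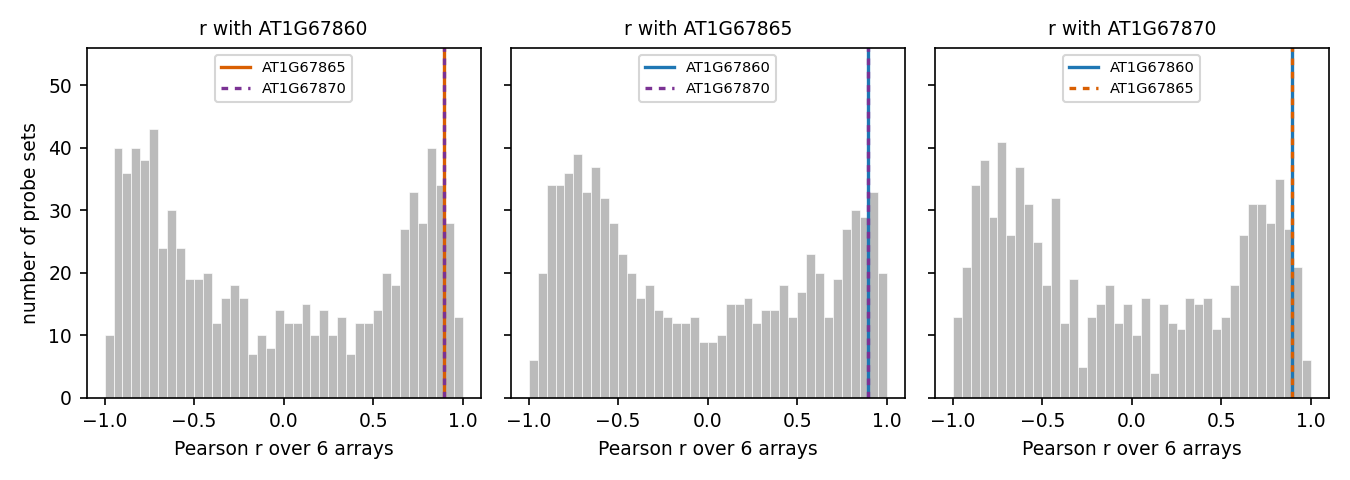
Number of probe sets (vertical axis) by Pearson r over the 6 arrays (horizontal axis) with AT1G67860, AT1G67865 and AT1G67870, for 816 single-gene probe sets with an SD of at least 0.3. Coloured lines mark the other members, which lie at r of 0.89 to 0.90 with 3.31% to 6.50% of the probe sets at or above the closer one.

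The genes on either side of the 3 are not members of the group. The group was picked with canopy levels known, so a neighbour that was equally higher could have been included. The nearest flanks are therefore not independent of the choice. Of the 10 annotated loci before AT1G67860 and the 10 after AT1G67870, 12 have a single-gene probe set, 6 on each side. None of the 12 passed limma's test (0 at an adjusted p under 0.05, against 0.677% of all probe sets in either direction), and 2 had an unadjusted p under 0.05, against 12.2% of all probe sets. With so small a share called over all probe sets, 0 of 12 does not set these loci apart. On all 6 arrays, 4 of the 12 lay under the array median, where a change may be understated. In the canopy 5 of the 12 were higher and 7 lower, with a median log2 difference of -0.01. The 3 genes had differences of 0.72 to 0.89, and the nearest measured loci had 95% intervals that ended at 0.26 on the left and at -0.15 on the right.

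On the left the nearest measured locus is AT1G67855, since AT1G67856, which lies between it and AT1G67860, has no single-gene probe set in the annotation used here. AT1G67855 had levels of 0.73, 0.72 and 0.68 in single plants and 0.74, 0.88 and 0.70 in the canopy (log2, replicates 1 to 3). Its groups overlapped. The difference was 0.06 ± 0.09 (log2, SE, n = 3 per group), with a 95% interval of -0.14 to 0.26 (limma adjusted p = 0.859). All its values lay under the array medians of 1.29 to 1.32, where a change may be understated. AT1G67850, the measured locus before it, differed by -0.12 ± 0.10 (log2, SE), with a 95% interval of -0.35 to 0.11.

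On the right the next locus is AT1G67880, of a family of N-acetylglucosaminyltransferase-like proteins. It stood at 2.16, 2.01 and 2.44 in single plants and at 1.58, 1.86 and 1.83 in the canopy (log2, replicates 1 to 3). Here the canopy arrays were all below the single-plant arrays, the opposite order to the 3 genes. The difference was -0.45 ± 0.13 (log2, SE, n = 3 per group), with a 95% interval of -0.75 to -0.15. It did not pass limma's test over all probe sets (adjusted p = 0.199), and groups that do not overlap, with the canopy lower, were found for 9.30% of all probe sets. RAF11 (AT1G67890), a Raf-like protein kinase gene, came next and differed by -0.21 ± 0.17 (log2, SE), with canopy replicate 1 at 1.10 and the other 5 arrays between 1.70 and 1.82.

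SUFE2, an activator of cysteine desulfurase for iron-sulfur cluster assembly, lies 7 places before AT1G67860 and had the highest difference of the 12. Its levels were 0.68, 0.99 and 0.90 in single plants and 1.93, 1.36 and 1.65 in the canopy (log2, replicates 1 to 3), and the groups did not overlap. The single-plant values lay under the array medians of 1.29 to 1.32, where a change may be understated, and the canopy values above them. The difference was 0.79 ± 0.15 (log2, SE, n = 3 per group; limma adjusted p = 0.0657), which did not pass. Its canopy arrays had the same order as those of AT1G67865, with replicate 1 highest and replicate 2 lowest, and r with AT1G67865 was 0.97 over the 6 arrays and 0.85 after the group means were removed. With AT1G67860 and AT1G67870, r of SUFE2 was 0.82 and 0.85 over the 6 arrays but -0.54 and -0.12 after the group means were removed. Values as far from 0 were not particular to SUFE2 among the 12 loci. With the group means removed, AT1G67850 and AT1G67820 both had r of 0.87 with AT1G67860, and AT1G67930 had -0.85. With AT1G67865, AT1G67890 had -0.84. SUFE2 is named for its values, and the nearer measured loci AT1G67820, of the protein phosphatase 2C family, AT1G67850 and AT1G67855 lie between it and the 3 genes, with differences of -0.01, -0.12 and 0.06 (log2). AT1G67820 and AT1G67855 lay under the array medians on all 6 arrays, where a change may be understated. FXG1, CSK and AT1G67856 in the same stretch have no single-gene probe set here.

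**Figure D5:**
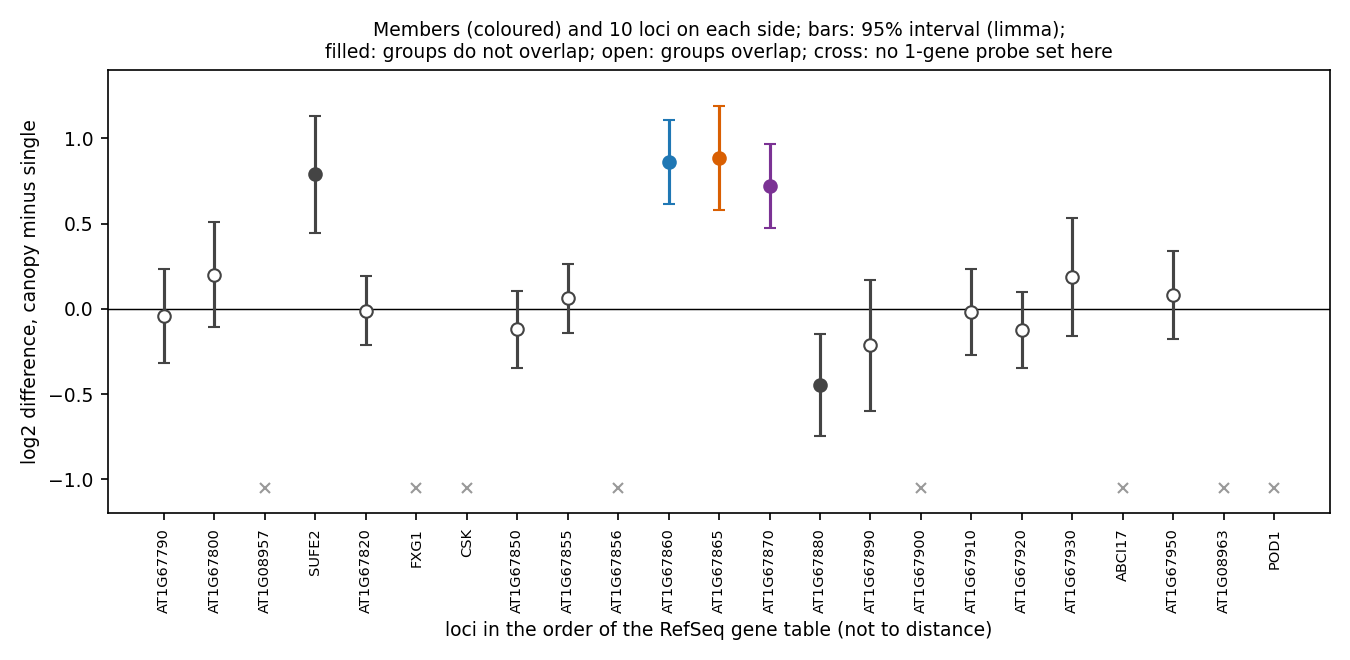
Log2 difference between canopy and single plants (vertical axis, bars for the 95% interval of limma) for the 3 genes (coloured) and the 10 loci on each side in chromosome order (horizontal axis, evenly spaced). Filled points have groups that do not overlap, open points have groups that overlap and crosses are loci without a single-gene probe set here. The 3 genes stand at 0.72 to 0.89, AT1G67855 at 0.06 and AT1G67880 at -0.45.

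Over the whole array, 2133 runs of 3 consecutive annotated loci had a single-gene probe set for each locus. The run of AT1G67860, AT1G67865 and AT1G67870 was the 1 run (0.0469%) in which all 3 loci had canopy arrays above all single-plant arrays, and 0 runs had all 3 below. When loci without a single-gene probe set were skipped, 13321 runs could be counted. All 3 loci were higher without overlap in 6 of them (0.045%) and lower without overlap in 11 (0.0826%). The run of the 3 genes was the 1 run of either count in which all 3 loci passed limma's test, or in which all 3 differed by at least 0.5 (log2) in the same direction. With any 1 array left out, 0 of the 2133 runs had all 3 loci pass, and 2 to 6 were higher and 5 to 9 lower without overlap. The 3 genes were chosen from these arrays, so the counts are a description and test nothing. Of all probe sets, 7.71% were higher and 9.30% lower without overlap, so runs of 3 would be few among unrelated loci too. The counts without overlap therefore do not set the run of the 3 genes apart. The counts by limma's test or by a difference of at least 0.5 cannot do so either, because the genes were chosen with their differences on these arrays known. Successive runs share loci, and 8730 probe sets have no gene in the annotation used, so other runs may go uncounted.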

How the data were processed

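Per the submitters' processing notes, the authors made the deposited RMA values with R 2.15.0. They were read here as log2. The scale is not stated, but each doubling of a hybridisation control raised its value by 1.10 to 1.19 units. The highest value was that of canopy replicate 1, and canopy replicate 2 came next at 1.11. Where zero lies on this scale is not known, no detection calls were used, and no gene coordinates are given. The number of arrays limits the precision.

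All 22746 non-control probe sets were fitted with limma 3.58.1 (R 4.3.3; lmFit, eBayes, two-sided, Benjamini-Hochberg adjustment), canopy minus single plants, without a block or a filter. Of 13513 single-gene probe sets, 13436 matched the RefSeq table by gene number and 48 by locus name. For a locus with several, the brightest probe set was taken. The fit was tested on simulated data. The members and lists were chosen with earlier results of these data known. Besides the members, the rule named the nearest measured locus on each side, flanking loci that passed, and the 3 genes with the highest r per member; AT1G67850, AT1G67820, RAF11 and SUFE2 were added after their values were seen. Alternatives were other scalings, fits and thresholds, a replicate block and leaving out each array. Sequence comparisons planned for promoters and proteins were not analysed here.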

Additional observations from a re-analysis of the deposited data

How the results depend on the processing

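The log2 differences of the 3 genes moved by less than the replicate spread under each scaling. The replicate block cannot change them in this balanced design. Leaving out 1 of 3 arrays can move a group mean only within the spread of its group, so neither tests their stability. Over omitted arrays they ranged from 0.77 to 0.94 for AT1G67860, 0.75 to 1.02 for AT1G67865 and 0.63 to 0.79 for AT1G67870. Their correlations fell from 0.90, 0.89 and 0.90 to -0.197, -0.497 and -0.0205 once group means were removed, which by construction takes away the gap between groups. The number of flanking loci called was 0, and 1 (SUFE2) with the filter on low levels (limma adjusted p = 0.0487), with an intensity trend and robust moderation (0.0186) or at an adjusted p under 0.1. Over 12 alternatives its adjusted p lay between 0.0186 and 0.191. The number was 0 under the other alternatives, 5 or 20 loci on each side and omitted arrays included. AT1G67880 did not pass in any of 12 alternatives (0.177 to 0.431).

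Over all probe sets 97 were higher and 57 lower. These counts became 151 higher with the intensity trend, 39 and 24 with the replicate block, and 16 to 94 higher and 1 to 65 lower with 1 array omitted. Among runs of consecutive loci, 1 was higher without overlap and 0 lower. The count higher was 2 with equal medians, 6 when unmeasured loci were skipped and 2 to 6 with 1 array omitted. The count lower was 1 after repeated quantile normalization, 11 when unmeasured loci were skipped and 5 to 9 with 1 array omitted; fewer arrays make it easier not to overlap. The 1 run in which all loci passed became 0 with the replicate block and 0 with each omitted array. With the block AT1G67860 alone of the 3 genes passed. Same-numbered arrays deviated together at r of 0.0024, 0.0989 and -0.064, and for 2 of 6 arrays the best match across groups had the same number, so the numbers pair nothing visibly. The comparison with related proteins was not run.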
